A study of Mus musculus with 8 samples.

Results

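The 36 genes described here encode the protein folding machinery of the endoplasmic reticulum (ER) and the unfolded protein response, the signalling system that adjusts this machinery to its load. They were chosen by symbol from the raw counts table, where all 36 were found among 15288 genes, and all 36 passed the filter on low counts that left 14024 genes for testing. They fall into 6 sensor and signalling genes, 9 chaperone and cochaperone genes, 10 genes of disulfide bond formation and related thioredoxin-fold or CRELD proteins, 10 genes of ER-associated degradation, and the translocation channel gene Sec61b.

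The libraries came from IMCD cells, a mouse kidney line of inner medullary collecting duct origin, and each was sequenced in bulk. Control cells (4 libraries, replicates 1 to 4) were kept for 12 h in DMEM without serum, and NaCl cells (4 libraries, replicates 5 to 8) were kept for the same time in the same medium with 100 mmol added NaCl, an amount the labels give without a volume. Both groups had been grown in high-glucose DMEM with serum, so the controls had also been without serum for 12 h. The labels do not say whether the libraries came from separate cultures, so p-values measure the spread between these libraries, which may be technical.

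Total counts were between 35.29 and 47.57 M per library, and the difference between the groups did not pass the threshold (exact two-sided permutation test p = 0.143). Of 18 markers of collecting duct and renal epithelium, 17 were in the table and 11 had a mean above 1 CPM (counts-per-million) in at least 1 group. The water channel gene Aqp2, a defining marker of principal cells, had at most 15 counts in any library, and the epithelial cadherin gene Cdh1 had at most 30 counts. The summed level of the epithelial list was 655 to 798 CPM in control and 857 to 928 CPM in NaCl libraries, and its genes went both ways: 4 were called higher, 3 lower and 7 not called, with 3 not tested. Pax2 (78.8 to 185 CPM) and Pax8 (159.6 to 231 CPM) were called higher, while Hoxb7, Gata3 and Scnn1g were called lower. The fibroblast list summed to 2753 to 3185 CPM in control and 2405 to 2822 CPM in NaCl libraries, the leukocyte list to 12.97 to 18.2 and 21.4 to 26.3 CPM, and the endothelial list to less than 1 CPM in all libraries. Of the 5 fibroblast genes, Col1a1 (2492 to 2148 CPM) and Pdgfra were called lower, Pdgfrb (37.5 to 61.1 CPM) was called higher, and Col1a2 and Dcn were not called. Of the leukocyte genes, Ptprc was called higher (4.05 to 13.5 CPM), Cd68 (2.41 and 1.69 CPM) and Csf1r (9.22 and 8.86 CPM) were not called, and Cd79a was not tested. The part of these markers in the results below was not tested.

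As background, newly made secretory and membrane proteins enter the ER through a protein channel and fold with the help of chaperones, lectins and disulfide isomerases, while proteins that fail to fold are returned to the cytosol for destruction. Unfolded proteins activate 3 membrane sensors, encoded by Ern1 (IRE1), Atf6 and Eif2ak3 (PERK). IRE1 splices the Xbp1 message into the form that encodes an active transcription factor, ATF6 is cut in the Golgi to release another, and PERK slows protein synthesis. Active XBP1 and ATF6 raise transcription of chaperone, isomerase and degradation genes. Counts per gene do not separate spliced from unspliced Xbp1, and they do not show the cutting of ATF6 or the phosphorylation of PERK.

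Of the members, 7 of the 9 chaperone genes were called lower with NaCl, where 17.2% of all genes tested were. Of the 10 disulfide genes, 3 were called lower, as were 2 of the 10 degradation genes and 1 of the 6 sensor genes. These shares lay nearer that of all genes. The chaperone genes Hsp90b1 and Hspa5 fell by 0.35 and 0.34 on the log2 scale, and 3 chaperone genes were called lower with the library number added as a linear term. Xbp1 was the only member called higher. All changes were below 1.5-fold: none of the 36 genes was called and changed beyond that, against 7.02% of all genes tested.

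In edgeR's quasi-likelihood test with Benjamini-Hochberg adjustment over all genes tested, 15 of the 36 genes had an adjusted p-value under 0.05, the threshold for a call, where 34.1% of all genes did. Of these, 14 were called lower, where 17.2% of all genes were, and 1 was called higher, where 16.9% of all genes were. The share of members called in either direction was therefore close to that of all genes, while the split by direction was not even. The median log2 fold change (NaCl over control) was -0.08 over the 36 genes and 0.0029 over all genes tested, and 24 of the 36 fold changes were negative. The groups did not overlap in 16 of the 36 genes, and they did not overlap in 33.4% of all genes. The members summed to 10047 ± 63.5 CPM in control and 9033 ± 212 CPM in NaCl libraries (SD, n = 4 each). Hspa5 and Hsp90b1 together made up 47.5% of that difference. In bulk libraries, less RNA in every cell and fewer cells that make it cannot be told apart.

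**Figure D1:**
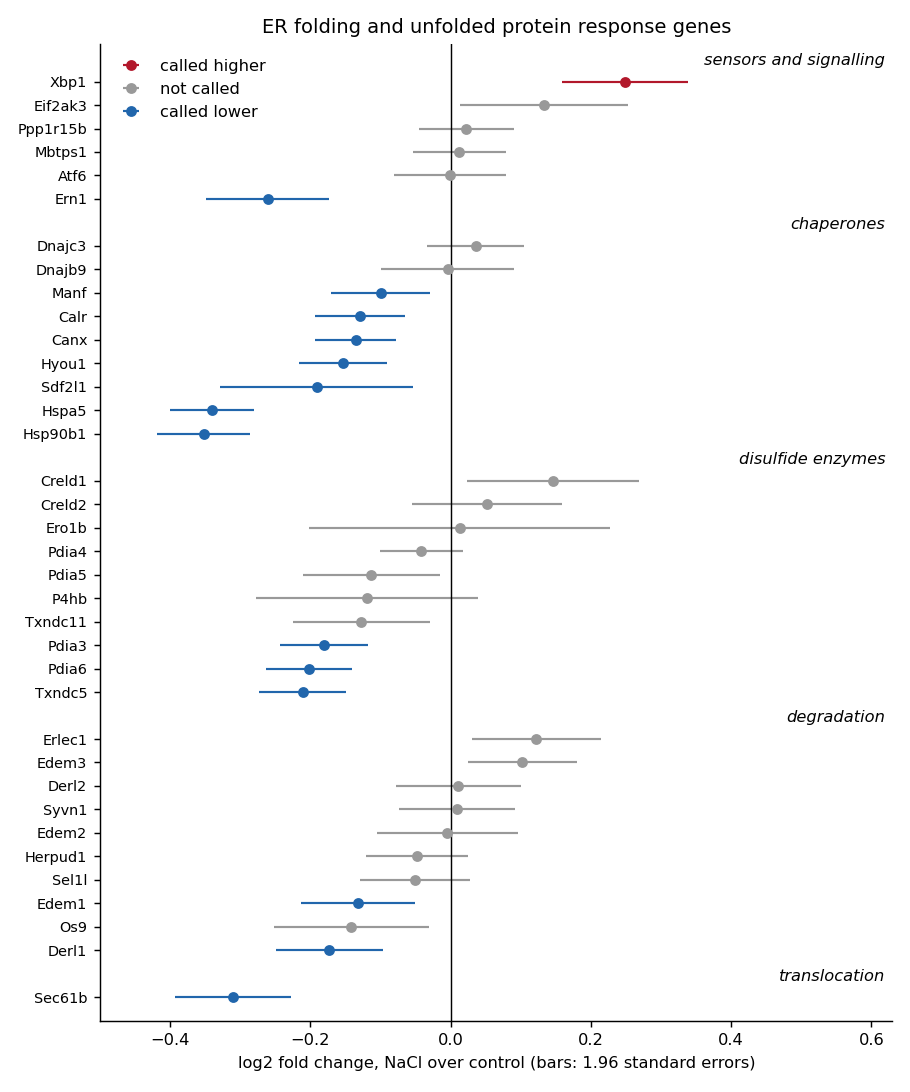
Log2 fold change (NaCl over control, x axis) of each of the 36 genes, grouped by role, with bars for 95% intervals and colours for the call at an adjusted p-value under 0.05. The 14 genes called lower include 7 of the 9 chaperone genes, and Xbp1 is the one gene called higher.

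The sensor genes were compared first. Ern1 (ENSMUSG00000020715; chromosome 11, 106394650 to 106487852, GRCm38) encodes the kinase and endoribonuclease IRE1. Its level was 88.6, 86.1, 84.2 and 95.3 CPM in control replicates 1 to 4 and 76.6, 72.0, 71.0 and 76.0 CPM in NaCl replicates 5 to 8. Every NaCl library lay below every control library. On the log2 scale Ern1 fell by 0.26 (SE 0.045; edgeR adjusted p = 2.53e-04).

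Xbp1 (ENSMUSG00000020484; chromosome 11, 5520659 to 5525893, GRCm38), whose message IRE1 splices, moved the other way. It had 139.5, 144, 142 and 149.9 CPM in the control libraries and 168, 158, 169 and 188 CPM in the NaCl libraries. No NaCl library reached down to the controls, replicate 8 was the highest, and the log2 fold change was 0.25 (SE 0.046; edgeR adjusted p = 5.10e-04). This call was lost with the library number as a linear term in the fit (log2 fold change 0.073; adjusted p = 0.489).

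The other sensor genes did not pass the test. Atf6 had 90.5, 89.2, 85.3 and 89.6 CPM in control and 83.6, 86.6, 92.6 and 91.5 CPM in NaCl libraries. The groups overlapped, and the log2 fold change was -0.0014 with a 95% interval (normal approximation) from -0.081 to 0.079 (edgeR adjusted p = 0.984). That interval excludes a change of the size seen for Ern1.

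Eif2ak3 had 101, 111, 119 and 118 CPM in control and 115, 120.3, 119 and 138 CPM in NaCl libraries. The groups overlapped, with replicates 6 and 8 above every control library, and the log2 fold change was 0.13 (SE 0.061; edgeR adjusted p = 0.113). With the library number centred within its group it was called higher (0.13 with adjusted p = 0.00171), and with the number as a linear term the direction turned (-0.17 with adjusted p = 0.0728). The annotated gene Gm43292 on the other strand overlaps 10.0% of its exons, and 10.8% of its transcript matches that gene. Some of its counts are therefore uncertain, since the sources used here do not say whether strand was counted.

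Mbtps1, which encodes the site-1 protease that cuts ATF6, had a log2 fold change of 0.012 (interval -0.053 to 0.078). Ppp1r15b, which encodes a subunit of the phosphatase that reverses the PERK signal, had a log2 fold change of 0.023 (interval -0.045 to 0.091). The annotated gene Gm26616 on the other strand overlaps 11.4% of its exons. Neither Mbtps1 nor Ppp1r15b passed edgeR's test (adjusted p = 0.810 and 0.663). The 6 sensor and signalling genes thus held 1 gene called lower and 1 called higher, shares near the 17.2% and 16.9% of all genes, and their median was 0.017 on the log2 scale.

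The chaperone genes included the most abundant members. Hspa5 (ENSMUSG00000026864; chromosome 2, 34771970 to 34777547, GRCm38) encodes BiP, the HSP70 of the ER, which also holds the sensors inactive. Its level was 1095, 1104, 1081 and 1091 CPM in control and 849, 849.7, 894 and 860.1 CPM in NaCl libraries. All NaCl libraries were lower, and the gap between the groups was several times the spread within either. The log2 fold change was -0.34 (SE 0.031; edgeR adjusted p = 2.57e-07), a level 21.0% lower than in control.

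Hsp90b1 (ENSMUSG00000020048; chromosome 10, 86690209 to 86705509, GRCm38) encodes GRP94, the HSP90 of the ER. It had 1128, 1199, 1164 and 1171 CPM in control and 878, 906, 949.8 and 918 CPM in NaCl libraries. The groups did not overlap, and the log2 fold change of -0.35 was the lowest among the members (SE 0.034; edgeR adjusted p = 5.19e-07). Other annotated genes overlap 21.6% of its exons, among them 1810014B01Rik on the other strand, and the sources used here do not say whether strand was counted.

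Sdf2l1 encodes a component of the BiP complex. It had 32.1, 30.9, 29.2 and 31.0 CPM in control and 29.2, 27.7, 28.3 and 22.9 CPM in NaCl libraries. The groups overlapped near 29.2 CPM, replicate 8 was the lowest, and the log2 fold change was -0.19 (SE 0.070; edgeR adjusted p = 0.0451). Without NaCl replicate 8 it was -0.12 (adjusted p = 0.136). The call was also lost without control replicates 1, 2 or 4 or NaCl replicates 6 or 7 (edgeR adjusted p = 0.0902, 0.0848, 0.0690, 0.0682 and 0.0530). The log2 fold changes in those refits were -0.17, -0.19, -0.19, -0.20 and -0.22. With library totals alone the call was lost as well (-0.18 with adjusted p = 0.0734). With the library number as a linear term the direction turned (0.048 with adjusted p = 0.827).

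The lectin chaperones of the ER retain glycoproteins until they fold. Calr (calreticulin) fell from 1207 ± 30.0 to 1104 ± 28.7 CPM (SD, n = 4 each; log2 fold change -0.13; edgeR adjusted p = 0.00525). Canx (calnexin), its membrane-bound relative, fell from 757 ± 8.94 to 689 ± 9.04 CPM (-0.14; adjusted p = 0.00195). In both the groups did not overlap. With the library number as a linear term both calls were lost, at -0.074 for Calr (edgeR adjusted p = 0.337) and -0.12 for Canx (adjusted p = 0.0741).

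Hyou1, which encodes GRP170, a nucleotide exchange factor of BiP, fell from 283 ± 4.93 to 254 ± 6.45 CPM (SD, n = 4 each; log2 fold change -0.15; edgeR adjusted p = 0.00139). Manf, which encodes a small secreted protein that binds BiP, fell from 179 ± 5.26 to 167 ± 5.78 CPM (-0.10; adjusted p = 0.0400). The Manf call was lost without control replicates 1, 2 or 3 or NaCl replicates 6 or 8 (edgeR adjusted p = 0.0717, 0.105, 0.0501, 0.126 and 0.0952). The log2 fold changes in those refits were -0.093, -0.089, -0.11, -0.084 and -0.090. The call was also lost with library totals alone (-0.089 with adjusted p = 0.0855) and with the library number as a linear term (-0.014 with adjusted p = 0.909).

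The 2 cochaperones with a J domain, which stimulate BiP, did not pass the test. Dnajb9 (ERdj4), a known target of XBP1, had 42.3 to 46.6 CPM in control and 43.8 to 47.4 CPM in NaCl libraries (log2 fold change -0.0045, interval -0.099 to 0.090; edgeR adjusted p = 0.955). Dnajc3 (p58IPK) had 188 to 199 CPM and 194 to 209 CPM (0.036, interval -0.034 to 0.10; adjusted p = 0.476). Both groups overlapped in both genes. Over the 9 chaperone genes the median log2 fold change was -0.14, and their summed level was 4955 ± 53.4 CPM in control and 4262 ± 77.2 CPM in NaCl libraries (SD, n = 4 each).

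**Figure D2:**
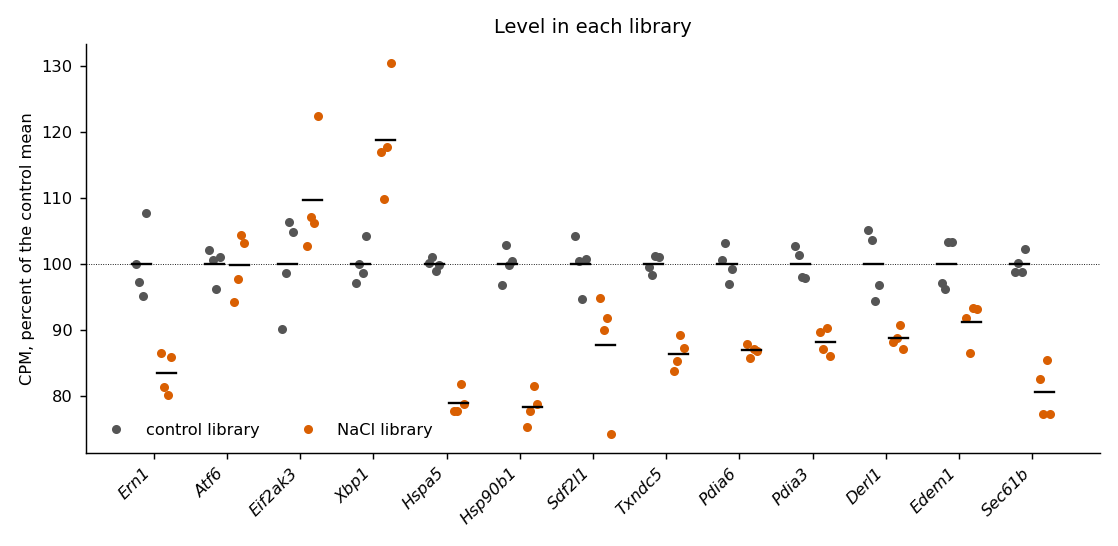
CPM in each library as a percentage of the gene's control mean (y axis) for 13 genes, with control libraries in grey, NaCl libraries in orange and group means as black bars. The NaCl libraries of Hspa5, Hsp90b1 and Sec61b all lie below every control library, those of Xbp1 all lie above, and those of Atf6 overlap the controls.

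Promoters of ER chaperone genes are known for the ER stress response element (ERSE), which binds ATF6 and XBP1 together with NF-Y. The element, CCAAT and CCACG with 9 bases of any kind between them, was searched on both strands in RefSeq promoters (GRCm38.p6, 250 bases before to 50 after each start), which were found for 30 of the 36 genes. It was present in 9 of these 30 genes, and in 0.137% of the 27025 genes with a promoter and 0.119% of the 32851 promoters. These 9 genes are shown because they hold an element that few other promoters hold. The other 21 genes with a promoter, Xbp1 and Sec61b among them, lack it in this window. Each line gives the gene's strand, 5′ to 3′, with the CCAAT and CCACG parts in capitals (CGTGG and ATTGG where the element lies on the other strand).
Hspa5, chr2:34772020-34772048 (+): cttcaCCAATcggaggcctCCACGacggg
Hsp90b1, distal, chr10:86705633-86705661 (-): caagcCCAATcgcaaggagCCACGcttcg
Hsp90b1, proximal, chr10:86705528-86705556 (-): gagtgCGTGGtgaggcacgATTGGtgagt
Calr, chr8:84847070-84847098 (-): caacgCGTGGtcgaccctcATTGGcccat
Canx, chr11:50325795-50325823 (-): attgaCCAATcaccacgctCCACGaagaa
Pdia6, chr12:17266486-17266514 (+): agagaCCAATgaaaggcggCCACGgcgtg
Dnajc3, chr14:118937822-118937850 (+): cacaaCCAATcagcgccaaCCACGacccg
Creld2, chr15:88819515-88819543 (+): cttctCGTGGcgagcctcaATTGGtccac
Ero1b, chr13:12565677-12565705 (+): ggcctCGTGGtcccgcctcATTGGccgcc
Syvn1, chr19:6046527-6046555 (+): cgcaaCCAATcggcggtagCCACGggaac

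Of these 9 genes, Hspa5, Hsp90b1, Calr, Canx and Pdia6 were called lower, and Dnajc3, Creld2, Ero1b and Syvn1 were not called, where 17.2% of all genes were called lower. Their median log2 fold change was -0.13, with a range from -0.35 to 0.052. Of the other 21 genes with a promoter, 6 were called lower and Xbp1 was called higher, and their median was -0.05, with a range from -0.31 to 0.25. The ranges of both classes overlapped widely. Hsp90b1, the gene with the lowest fold change, held the element 2 times, 107 and 212 bases before its start at the first base.

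A related element, ERSE-II (ATTGG and CCACG with 1 base between them, searched on both strands), was found in 1 member, Herpud1, and in 0.044% of all genes. The site is shown because Herpud1 is a standard reporter of the response.
Herpud1, chr8:94386372-94386392 (+): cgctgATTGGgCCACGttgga
The core TGACGTG, bound by ATF6 and XBP1, was found in 3 members, Hspa5, Txndc11 and Txndc5, and in 2.22% of all genes. These matches describe the letters in a fixed window and do not show binding.

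The disulfide enzymes form, break and rearrange the disulfide bonds of folding proteins. Of the 10 genes, 3 were called lower, where 17.2% of all genes were, and none was called higher, where 16.9% were. The median log2 fold change was -0.12. Txndc5 (ERp46) had 402, 397, 409 and 408 CPM in control and 339, 344.5, 360.3 and 353 CPM in NaCl libraries. The groups did not overlap, and the log2 fold change was -0.21 (SE 0.032; edgeR adjusted p = 7.05e-05). Other genes, among them Bmp6 on the other strand, overlap 15.9% of its exons.

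Pdia6, which encodes the isomerase P5, had 391, 401, 377 and 386 CPM in control and 341, 333, 339 and 338 CPM in NaCl libraries. The NaCl libraries lay close together and below every control library. The log2 fold change was -0.20 (SE 0.031; edgeR adjusted p = 9.38e-05).

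Pdia3, which encodes ERp57, the isomerase that works with calnexin and calreticulin, had 827, 815, 789 and 787 CPM in control and 721, 700.2, 726 and 692 CPM in NaCl libraries. The groups did not overlap, and the log2 fold change was -0.18 (SE 0.032; edgeR adjusted p = 3.50e-04). With the library number as a linear term the call was lost (-0.10; adjusted p = 0.153).

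P4hb, which encodes protein disulfide isomerase itself, had a wide spread among the libraries of each group. Its level was 1025, 1095, 1184 and 1198 CPM in control and 891, 1007, 1129 and 1117 CPM in NaCl libraries. The groups overlapped, and the log2 fold change of -0.12 did not pass edgeR's test (SE 0.081; adjusted p = 0.300). Within both groups its level moved with the library number, by 0.097 per number on the log2 scale (adjusted p = 2.95e-06). The group difference passed in both fits that held this number, at -0.12 with the number centred within its group (adjusted p = 6.91e-04) and at -0.51 with the number as a linear term over both groups (adjusted p = 5.28e-08).

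Txndc11, which encodes a membrane-anchored ER thioredoxin-fold protein, had 41.3 to 46.4 CPM in control and 38.4 to 41.3 CPM in NaCl libraries, which did not overlap, yet the test was not passed (log2 fold change -0.13; edgeR adjusted p = 0.0578). The test was passed without control replicate 3 (-0.15 with edgeR adjusted p = 0.0376) and with DESeq2 (-0.13 with adjusted p = 0.0448). It was also passed with the library number centred within its group (-0.13 with edgeR adjusted p = 0.0274), and not with the number as a linear term (-0.15 with adjusted p = 0.277). Pdia5 (-0.11 with edgeR adjusted p = 0.0902) and Pdia4 (-0.042 with adjusted p = 0.317) encode further isomerases, and neither was called. With the library number centred within its group Pdia5 was called lower (-0.11 with adjusted p = 0.0456). With the number as a linear term it was not (-0.0040 with adjusted p = 0.984).

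The remaining genes of this role had positive fold changes that did not pass edgeR's test. Creld1, which encodes a membrane protein with a CRELD domain, had 70.7 to 83.6 CPM in control and 77.4 to 95.2 CPM in NaCl libraries (log2 fold change 0.15; adjusted p = 0.0896). Without NaCl replicate 5 it was called (0.19; adjusted p = 0.0172), as it was with the library number centred within its group (0.14 with adjusted p = 0.00166), while with the number as a linear term the direction turned (-0.18 with adjusted p = 0.0858). Creld2, a secreted relative and ER stress gene, had 49.2 to 58.5 CPM and 55.2 to 60.1 CPM (0.052, interval -0.054 to 0.16; adjusted p = 0.498). Ero1b, which encodes an oxidase that recharges the isomerases, was the least abundant member at 8.0 ± 0.731 CPM in control and 8.07 ± 1.02 CPM in NaCl libraries (SD, n = 4 each), and its interval ran from -0.20 to 0.23. Its transcript shares 21.7% of its sequence with other genes. The 10 disulfide genes summed to 3223 ± 60.3 CPM in control and 2929 ± 123 CPM in NaCl libraries (SD, n = 4 each).

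The degradation genes recognise misfolded proteins, carry them back across the membrane and attach ubiquitin. Of the 10 genes, 2 were called lower, a share near the 17.2% of all genes, and none higher. The median log2 fold change was -0.026. Derl1, which encodes a derlin of the retrotranslocation channel, had 142, 139.9, 127 and 131 CPM in control and 119, 119.97, 123 and 118 CPM in NaCl libraries. The groups did not overlap (log2 fold change -0.17, SE 0.039; edgeR adjusted p = 0.00241). With the library number as a linear term the call was lost (-0.068; adjusted p = 0.525).

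The Edem genes encode mannosidase-like proteins that mark glycoproteins for degradation, and they did not share a direction. Edem1, a known XBP1 target, had 79.6, 79.0, 84.8 and 84.7 CPM in control and 75.4, 71.0, 76.5 and 76.4 CPM in NaCl libraries. All NaCl libraries were lower, and Edem1 was called lower (log2 fold change -0.13, SE 0.041; edgeR adjusted p = 0.0201). The call was lost without control replicates 3 or 4 or NaCl replicate 6 (edgeR adjusted p = 0.0596, 0.0501 and 0.0753). The log2 fold changes of Edem1 in those refits were -0.12, -0.12 and -0.11. Edem3 had 72.6 to 78.8 CPM in control and 80.1 to 83.7 CPM in NaCl libraries, which did not overlap, with a log2 fold change of 0.10 that did not pass (adjusted p = 0.0557). Without control replicate 4 it passed (0.12 with edgeR adjusted p = 0.0386). Edem3 also passed with library totals alone (0.11 with adjusted p = 0.0424) and with the library number centred within its group (0.10 with adjusted p = 0.0244). With the number as a linear term it did not (0.085 with adjusted p = 0.466). Edem2 had a log2 fold change of -0.0046 (interval -0.11 to 0.096).

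The lectins Os9 and Erlec1 (XTP3-B), which deliver glycoproteins to the ubiquitin ligase, had fold changes of opposite sign, and neither was called. Os9 had 216, 217, 246 and 251 CPM in control and 194, 209, 215 and 225 CPM in NaCl libraries (log2 fold change -0.14; edgeR adjusted p = 0.0701). It was called without control replicates 1 or 2 or NaCl replicate 8 (adjusted p = 0.0291, 0.0371 and 0.0307), and with the library number in the fit, centred within its group (-0.14; adjusted p = 1.22e-04) or as a linear term (-0.44; adjusted p = 4.10e-07). Erlec1 had 68.0 to 79.6 CPM and 78.3 to 82.4 CPM (0.12 with edgeR adjusted p = 0.0545), and was called higher without control replicate 4 (0.16 with adjusted p = 0.0169). Erlec1 was also called higher with library totals alone, after thinning and with the library number centred within its group (edgeR adjusted p = 0.0360, 0.0419 and 0.00933). With the number as a linear term its direction turned (-0.022 with adjusted p = 0.884).

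Syvn1, Sel1l, Derl2 and Herpud1, which work together with Derl1 at the ubiquitin ligase, were not called. Syvn1, which encodes the ligase HRD1, had 48.4 to 51.2 CPM in control and 48.7 to 50.7 CPM in NaCl libraries (log2 fold change 0.0095, interval -0.073 to 0.092). Its partner Sel1l had a log2 fold change of -0.051 (interval -0.13 to 0.027) and Derl2, another derlin, one of 0.011 (interval -0.078 to 0.10). Herpud1, a membrane adaptor of the complex, had 92.1 to 101 CPM and 91.0 to 94.3 CPM (-0.048, interval -0.12 to 0.025). None of these 4 genes passed edgeR's test (adjusted p = 0.888, 0.357, 0.878 and 0.347). The 10 degradation genes summed to 989 ± 27.9 CPM in control and 950 ± 18.4 CPM in NaCl libraries (SD, n = 4 each).

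Sec61b (ENSMUSG00000053317; chromosome 4, 47474658 to 47483242, GRCm38) encodes the beta subunit of the channel through which proteins enter the ER. It had 78.3, 79.5, 78.4 and 81.0 CPM in control and 65.5, 61.3, 67.8 and 61.2 CPM in NaCl libraries. The groups were well apart, and on the log2 scale Sec61b fell by 0.31 (SE 0.042; edgeR adjusted p = 2.66e-05). Its transcript shares 22.8% of its sequence with other genes, mostly Gm10320, so part of its counts could be exchanged.

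Levels between genes were compared per length, as CPM per kb of annotated exon. In control libraries Calr was the highest at 553 CPM per kb, followed by Hsp90b1 at 413, P4hb at 393, Hspa5 at 291 and Pdia3 at 290. The sensors were far lower, with Eif2ak3 at 23.2, Atf6 at 12.2 and Ern1 at 10.9 CPM per kb, and Ero1b was the lowest at 1.23. Of the 12 members with the highest level per kb over both groups, 9 were called lower, where 17.2% of all genes were, and 3 were not called. Of the next 12, 3 were called lower, 1 was called higher, where 16.9% of all genes were, and 8 were not called. Of the lowest 12, 2 were called lower, a share near the 17.2% of all genes, and 10 were not called. The median log2 fold changes of these classes were -0.16, 0.024 and -0.0029. Across the 36 genes, which share libraries and differ in depth, Spearman's rho between mean CPM and log2 fold change was -0.35, and across all 14024 genes it was -0.09. Genes are not independent replicates, and low levels also limit what can be called.

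**Figure D3:**
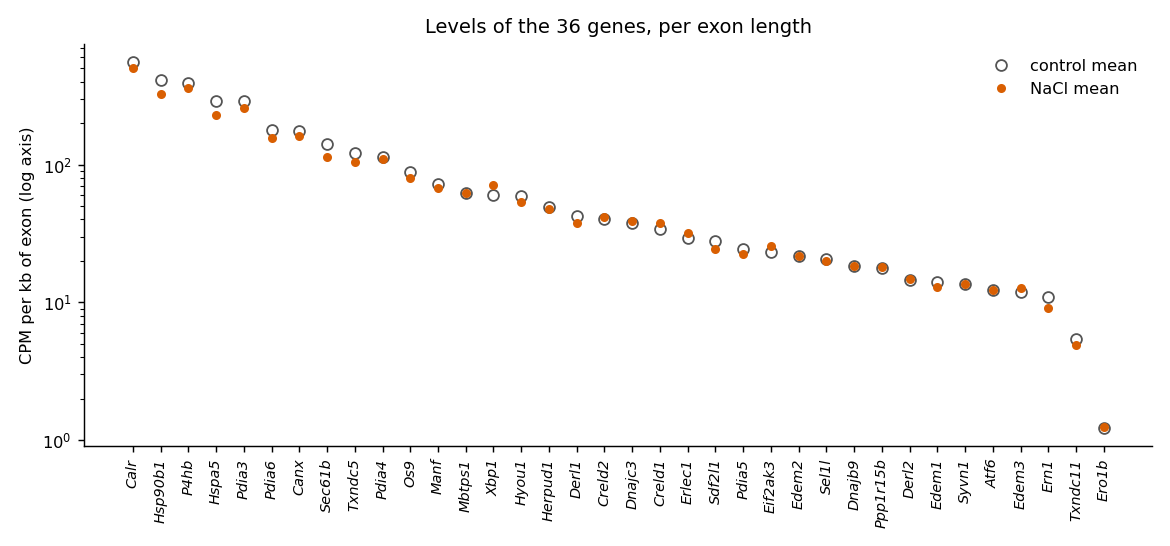
Mean level of each of the 36 genes in CPM per kb of exon (log y axis), with control means as open circles and NaCl means as orange points, ordered by control level. NaCl points sit below the control circles for most of the abundant genes, and the levels run from 553 for Calr to 1.23 for Ero1b.

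The labels number the libraries 1 to 8 and do not say what the number stands for. Within groups, 6 of the 36 genes had a term for this number with an adjusted p-value under 0.05 in edgeR (Eif2ak3, Xbp1, P4hb, Creld1, Creld2 and Os9), where 13.2% of all genes did. Creld2 moved down with the number and the other 5 moved up. When the number entered as a linear term over both groups, 10 members were called lower, where 12.6% of all genes were, and 1 was called higher, where 11.5% of all genes were. Of the 15 members called without this term, 8 remained called in the same direction: Ern1, Hspa5, Hsp90b1, Hyou1, Pdia6, Txndc5, Edem1 and Sec61b. P4hb and Os9 were then also called lower, and Creld2 was called higher (log2 fold change 0.28; adjusted p = 0.0148). When the number was instead centred within its group, 18 members were called lower, where 22.0% of all genes were, and 5 were called higher, where 21.0% of all genes were, and all 15 calls were kept. The 2 fits differ in whether a trend is taken to run on from replicate 4 to replicate 5 or to start again. The number separates the groups completely, so a trend along it and an effect of NaCl cannot be fully told apart.

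**Figure D4:**
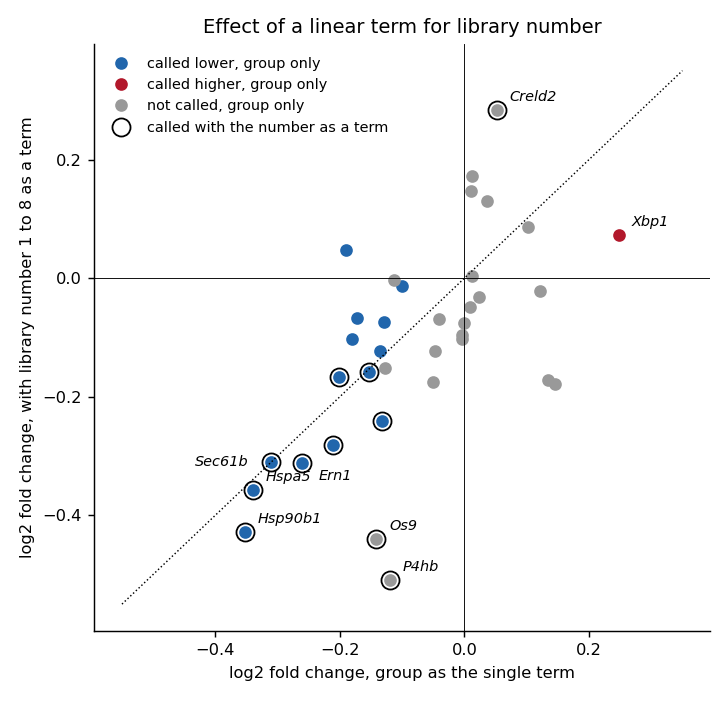
Log2 fold change (NaCl over control) of each of the 36 genes with the group as the single term (x axis) and with the library number 1 to 8 as an added linear term (y axis), where the dotted line marks equal values and rings mark calls with the added term. Hspa5, Hsp90b1, Ern1 and Sec61b stay low in both fits, while P4hb and Os9 lie far below the line and Xbp1 loses its call.

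Other genes of the pathway were examined in 8 lists with 119 genes, of which 114 were in the table and 113 were tested. Of these 113, 38 were called lower, where 17.2% of all genes were, and 13 were called higher, where 16.9% of all genes were. Their median log2 fold change was -0.059. With the library number as a linear term, 27 were called lower, where 12.6% of all genes were, and 9 higher, where 11.5% were. Leaving out 1 library at a time gave 32 to 37 called lower and 10 to 13 called higher.

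The list nearest to Sec61b held genes for translocation, signal peptide removal and glycan transfer. Of its 27 tested genes, 15 were called lower, where 17.2% of all genes were, and 2 higher, where 16.9% were. The list's median was -0.12 on the log2 scale. Sec61g, which encodes the gamma subunit of the channel, fell from 37.9 ± 3.16 to 29.4 ± 2.02 CPM (SD, n = 4 each; -0.37; edgeR adjusted p = 4.32e-04). Magt1, which encodes an accessory subunit of the oligosaccharyltransferase, fell from 125 ± 1.12 to 98.7 ± 3.29 CPM (-0.34; adjusted p = 1.09e-06). The 2 genes called higher were Stt3b, a catalytic subunit of that enzyme (0.14; edgeR adjusted p = 0.00464), and Tram2, a translocation factor (0.18; adjusted p = 0.00867).

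Other ER chaperones and prolyl isomerases had 7 of 18 genes called lower, where 17.2% of all genes were, and 1 higher, where 16.9% were (median -0.035). Fkbp11, a prolyl isomerase of secretory cells, fell from 13.4 ± 1.76 to 7.86 ± 0.670 CPM (SD, n = 4 each; log2 fold change -0.77; edgeR adjusted p = 2.59e-05), and Fkbp7 fell by 0.32 on the log2 scale (adjusted p = 0.0111). Cnpy4 was called higher (0.15; adjusted p = 0.0195). Other ER disulfide enzymes had 5 of 15 genes called lower and none higher (median -0.065), against the same 17.2% and 16.9% of all genes. Among them Qsox1, a sulfhydryl oxidase of the secretory route, fell from 120.2 ± 2.18 to 65.3 ± 3.31 CPM (-0.88; adjusted p = 9.28e-11), and Prdx4, an ER peroxiredoxin, fell by 0.37 on the log2 scale (adjusted p = 2.88e-04).

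Other sensors and transducers had 2 of 8 genes called lower and 2 higher (median -0.015), shares not far from the 17.2% and 16.9% of all genes. Creb3l1, which encodes a relative of ATF6 that is also cut in the Golgi, fell from 39.5 ± 3.08 to 26.5 ± 1.39 CPM (SD, n = 4 each; log2 fold change -0.58; edgeR adjusted p = 2.38e-06), and Mbtps2, which encodes the site-2 protease, fell by 0.13 on the log2 scale (adjusted p = 0.0384). Atf6b, the paralogue of Atf6, was called higher (0.22; adjusted p = 2.14e-04), as was Wfs1 (0.22; adjusted p = 0.00831).

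The genes that the PERK branch induces through ATF4 were lower or did not pass the test. Of 6 genes, 4 were called lower in edgeR, where 17.2% of all genes were. They were Ddit3 (CHOP, log2 fold change -0.37 with edgeR adjusted p = 0.00277), Atf3 (-0.28 with adjusted p = 0.0164), Trib3 (-0.22 with adjusted p = 0.0214) and Atf4 itself (-0.10 with adjusted p = 0.0367). The groups overlapped for Atf3 and Trib3 and did not overlap for Ddit3 and Atf4. Chac1 (-0.11; adjusted p = 0.448) and Ppp1r15a (0.039; adjusted p = 0.575) were not called.

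Glycan trimming genes had 1 of 9 called lower and 2 higher (median -0.048), and other degradation genes had 3 of 24 lower and 2 higher (median -0.03), where 17.2% of all genes were called lower and 16.9% higher. The Golgi mannosidase gene Man1a (log2 fold change 0.43; edgeR adjusted p = 3.55e-05), the folding sensor gene Uggt2 (0.22; adjusted p = 0.0208), and the ligase genes Rnf5 (0.25; adjusted p = 2.73e-04) and Tmem129 (0.16; adjusted p = 0.0373) were called higher. Ngly1 (-0.17; adjusted p = 0.0254), Selenos (-0.23; adjusted p = 0.00293) and Erlin1 (-0.22; adjusted p = 0.0137) were called lower.

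A last list held 6 messages that have been reported as substrates of RNA decay by IRE1. Of these, 4 were called higher, where 16.9% of all genes were, and 1 lower, where 17.2% were. The list's median was 0.45 on the log2 scale. Pdgfrb rose from 37.5 ± 3.86 to 61.1 ± 3.78 CPM (SD, n = 4 each; 0.70; edgeR adjusted p = 1.08e-06). Bloc1s1, the best known of them, was below 1 CPM in both groups (0.86; adjusted p = 0.0393). Sparc fell from 1449 ± 100.5 to 1252 ± 59.4 CPM (-0.21; adjusted p = 0.00281). Pdgfrb and Col6a1, another of the 4 called higher (0.63; adjusted p = 4.26e-09), are also known as genes of mesenchymal cells and matrix.

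**Figure D5:**
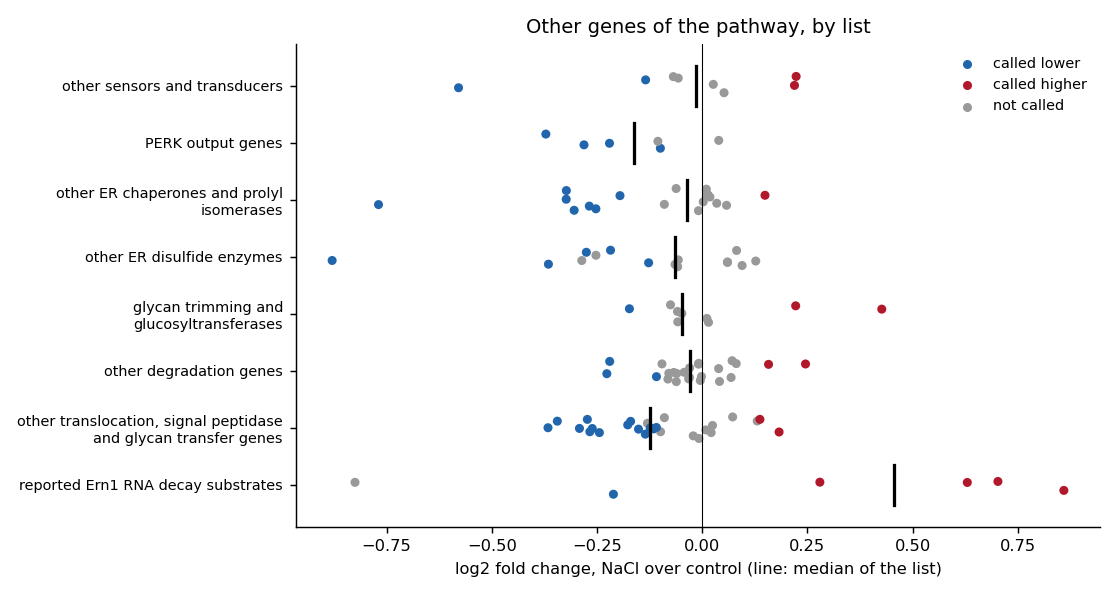
Log2 fold change (NaCl over control, x axis) of 113 other genes of the pathway, 1 point per gene, in 8 lists, with colours for the call and a black line at each list's median. The translocation and glycan transfer list has 15 of 27 genes called lower, where 17.2% of all genes were, and the IRE1 decay list has its median at 0.45.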

How the data were processed

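The authors deposited unscaled counts for Ensembl genes, which entered every test except 1 alternative. A second deposited table holds a normalized signal: each library's counts over its own factor, from 0.864 to 1.15. Per the submitters' processing notes, Trim Galore 0.6.7, STAR, DESeq2 1.34.0 and mm10 were used; the counting program, strand setting and gene filter are not given in the sources used here. The lowest total of a gene was 19 counts.

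Testing used edgeR 4.0.16 under R 4.3.3 (filterByExpr at 10 counts, TMM, robust quasi-likelihood model of group alone; SE taken as the log2 fold change over the square root of F). CPM are counts-per-million of the TMM-scaled library total. Replicate pairs differed by more than sampling noise (chi-square per degree of freedom 5.11 to 21.9 over 12 pairs). The fit was tested on simulated data, where recovery was lowest at the smallest fold simulated and the share of false calls was above the nominal level; most members changed by less than that fold, a size not simulated. Alternatives used DESeq2 1.42.0, limma 3.58.1 with voom or on log2 of the deposited normalized values plus 1, other scalings, filters and thresholds, thinning, the library number as a covariate, and leaving out libraries; leaving out control replicate 1 and NaCl replicate 5 together was chosen after seeing the data. Exon lengths, overlaps and shared sequence (blastn 2.17.0, at least 75 bases at 98% identity) came from GENCODE M21 on GRCm38, which held all 36 members, and promoters from RefSeq.

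The members and lists were chosen with earlier results of these data known. Values in every library were given for the 3 sensor genes, Xbp1, Hspa5 and, in each role, the 3 called genes with the highest absolute log2 fold change; P4hb and Os9 were added after their values were seen. In the other lists, up to 2 called genes per direction were named, with all PERK output genes; Col6a1 was added after its values were seen.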

Additional observations from a re-analysis of the deposited data

Results flagged for a closer look

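Among 76 groups of 4 values (the 36 genes, the total counts and the members' share of counts, in each group), a library stood apart from the other 3 in 4 of them by Dixon's ratio, where about 3.8 arise by chance. Total counts were 47.57 M in control replicate 1 against 41.77 to 42.73 M in the other controls, and 35.29 M in NaCl replicate 5 against 41.37 to 42.39 M in the other NaCl libraries. Without both libraries, 13 members were called lower and 2 higher. Hyou1 had 290.3 CPM in control replicate 1 against 280.2 to 280.6 CPM, and its call held without that library. For Dnajb9, NaCl replicate 7 stood at 47.43 CPM and the rest of its group at 43.80 to 44.25 CPM; the gene was not called with or without that library.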

How the results depend on the processing

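No paired analysis was run because the labels give no pairing. The libraries are numbered 1 to 8, and whether position within a group pairs them is not stated. The 15 called members gave 315 refits, of which 287 kept direction and call, 27 lost the call and 1 reversed; Ern1, Hspa5, Hsp90b1, Hyou1, Pdia6, Txndc5 and Sec61b kept theirs in all. Counts called that moved by more than 1.5-fold, or to or from 0, are given below, with some smaller moves. The cause of these moves was not tested unless the setting itself is stricter. At an adjusted p under 0.01, 3145 genes, 1 degradation gene (lower) and 25 wider pathway genes (lower) were called. Members called lower then numbered 11, of which 5 were chaperone genes. With library totals alone, 4 members were called higher (1 disulfide, 2 degradation). Members called lower then fell from 14 to 12 and chaperone genes called lower from 7 to 5. Sdf2l1 and Manf lost their calls there (edgeR adjusted p = 0.0734 and 0.0855). With the library number centred within its group, 5 members were called higher (2 sensor, 1 disulfide and 2 degradation genes) and 6 disulfide genes lower. With the number as a linear term, 3 chaperone genes were called lower, and 0 sensor and 1 disulfide gene higher. After thinning to the smallest total, 2 members were called higher (1 degradation gene). Without control replicate 1 and NaCl replicate 5 together, a setting chosen after seeing the data, 2 members were called higher (1 disulfide gene), and Sdf2l1 and Manf lost their calls (adjusted p = 0.0507 and 0.0609). Leaving out 1 library at a time gave 1 to 3 members called higher, 0 to 1 disulfide genes higher, and 1 to 3 degradation genes lower and 0 to 2 higher. In the same refits 11 to 14 members and 5 to 7 chaperone genes were called lower. Fold changes reversed, on the log2 scale, with library totals alone for Atf6 (0.0085), Dnajb9 (0.0059) and Edem2 (0.0064); after thinning for Ero1b (-0.027) and Edem2 (0.0069); without both libraries for Atf6 (0.035); and with the number as a linear term for Eif2ak3 (-0.17), Ppp1r15b (-0.032), Sdf2l1 (0.048), Creld1 (-0.18), Syvn1 (-0.049) and Erlec1 (-0.022). Leaving out 1 library at a time, the range crossed 0 for Atf6 (-0.024 to 0.025), Mbtps1 (-0.012 to 0.027), Dnajb9 (-0.036 to 0.0098), Ero1b (-0.058 to 0.073), Creld2 (-0.00088 to 0.079), Edem2 (-0.040 to 0.018), Syvn1 (-0.0045 to 0.023) and Derl2 (-0.016 to 0.030). Of these, Sdf2l1 alone was a called gene. Ero1b had the lowest level among the members, with a mean near 8 CPM, and the widest SE (0.109). P4hb, at 1125 CPM in control and 1036 CPM in NaCl libraries, had the next widest SE (0.081). The part of depth in these widths was not tested.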
